A study of Mus musculus with 15 samples.

Results

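The comparison described here is between 2 doses of interleukin-12 (IL-12) given to mouse cerebellar cell cultures, 100 and 30 ng/ml, and it takes in 10 of the 15 cultures of the series: 5 at 100 ng/ml and 5 at 30 ng/ml. The other 5 cultures were unstimulated and give the background level of each gene. All 15 were primary cultures of dissociated cerebellum from wild-type C57BL/6 pups at postnatal day 0 to 4, seeded at 90000 cells per well and grown in a serum-free neuronal medium until day 14 in vitro, then kept for 18 h with or without recombinant murine IL-12p70. Members were chosen by the dose in the sample titles alone. Polyadenylated RNA was sequenced, and the values used here are estimated read counts summed per gene. Of 35142 genes in the files, 15360 reached 1 CPM (counts scaled to the size of the library) in at least 2 cultures and were tested. The labels do not say whether the 5 replicates of a group came from separate preparations, so the p-values measure the spread between these samples, which may be technical.

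IL-12 is a heterodimeric cytokine that binds a receptor made of IL-12Rβ1 and IL-12Rβ2 and signals through the kinases TYK2 and JAK2, classically to the transcription factor STAT4 in T and NK cells. In the brain, microglia are the resident macrophages. They carry Toll-like, C-type lectin, formyl peptide and scavenger receptors, and many of the genes that they induce on activation are targets of the transcription factor NF-kB, among them its own inhibitors. Itaconate, made from cis-aconitate by the enzyme encoded by Acod1, is a metabolite of activated macrophages.

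The labels call these cultures neurons, and their RNA also held markers of glia. Summed over the cerebellar neuron markers, the level in TPM, an abundance scale that takes transcript length into account, ran from 379 to 419 at 100 ng/ml and from 392 to 456 at 30 ng/ml. Microglia and macrophage markers summed to 9812 to 12885 TPM and 8259 to 10294 TPM, astrocyte markers to 4910 to 5420 and 5195 to 6036, and oligodendrocyte-lineage markers to 6299 to 7634 and 7059 to 8647, in the same order. The Purkinje cell marker Pcp2 and the microglial marker Siglech were below 0.1 TPM in the mean. T and NK cell markers summed to 5.32 to 8.47 TPM at 100 ng/ml and 6.70 to 7.74 TPM at 30 ng/ml, with Cd3e, Cd3g, Cd2, Cd8a, Ncr1, Gzma, Gzmb and Prf1 below 0.1 TPM. Neutrophil and monocyte markers summed to 41.9 to 53.9 TPM at 100 ng/ml and 42.7 to 53.8 TPM at 30 ng/ml; of the 16, Csf3r and Vcan, which are not particular to these cells, passed the filter, and S100a9, Ly6g, Camp, Mpo, Elane and Ccr2 were below 0.1 TPM. In such bulk RNA, a change in the number of cells of a type and a change in RNA per cell cannot be told apart.

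**Figure D1:**
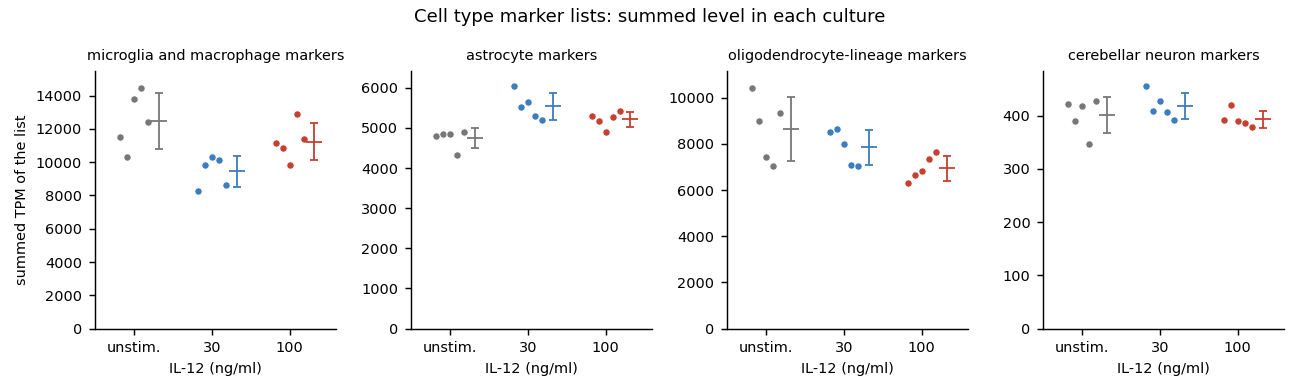
Summed TPM of 4 marker lists in each culture, by IL-12 dose; each panel has its own axis from 0, points are cultures and the bar beside them is the mean ± SD of 5. Microglia and macrophage markers were at 10303 to 14459 TPM without IL-12, 8259 to 10294 at 30 ng/ml and 9812 to 12885 at 100 ng/ml, so that the 100 ng/ml cultures lay mostly above the 30 ng/ml ones and within the unstimulated range or just under it.

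Libraries held 25746096 to 34708315 estimated counts at 100 ng/ml and 26927200 to 30288678 at 30 ng/ml. The library of replicate 2 at 100 ng/ml was the shallowest and stood apart. Its log2 CPM deviated from the rest of its group with an SD of 0.319, against 0.208 to 0.258 in the other 14 libraries, and 11.05% of its transcripts had an effective length above their length, against 6.04% to 8.20%.

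Between the doses, 89 of 15360 genes passed a Benjamini-Hochberg adjusted p of 0.05 in edgeR's quasi-likelihood test, which is 0.579% of those tested. Of these, 77 were higher at 100 ng/ml (0.501% of the genes tested) and 12 were lower (0.0781%). In the same fit, 1500 genes (9.77%) differed between 100 ng/ml and no IL-12 and 1209 genes (7.87%) between 30 ng/ml and no IL-12, 2 comparisons that share the unstimulated cultures. Most differences between the doses were small: the median absolute log2 fold change over all genes tested was 0.07, and among the 77 higher genes it was over 1 in 9, between 0.5 and 1 in 26 and below 0.5 in 42. The 12 lower genes ran from -0.57 to -0.18. In 73 of the 77 every culture at 100 ng/ml lay above every culture at 30 ng/ml, a pattern held by 1.74% of all genes tested, and in 12 of the 12 every culture lay below, against 1.23%. The largest log2 fold changes among the named higher genes were those of the itaconate enzyme, a formyl peptide receptor, an acute-phase protein and a scavenger receptor of macrophages.

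How many genes were called depended on single cultures. Among the cultures at 30 ng/ml, the count fell to 38 when replicate 5 was left out and to 55 when replicate 1 was. Among those at 100 ng/ml, it fell to 56, 53 and 58 when replicates 1, 4 and 5 were left out in turn. It rose to 147 when replicate 2 at 100 ng/ml, the library that stood apart, was left out, and 60.5% of those were higher at 100 ng/ml, against 86.5% of the 89. A set of 34 genes was called under each of 24 alternative fits, including each of these, and among them were Acod1, Fpr1, Saa3, Marco, Slc13a3, Clec4a1, Cd69, Siglece, Irak3, Igsf6, Cxcl16, Tlr2, Cd14, Icam1, Sox9 and Peg10.

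**Figure D2:**
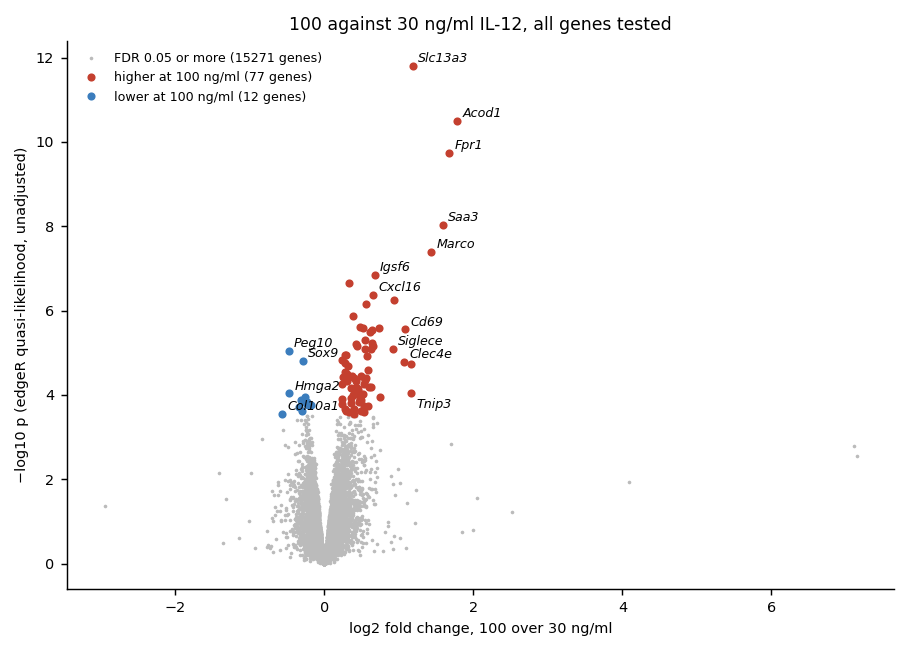
Each point is 1 of the 15360 genes tested, placed by its log2 fold change of 100 over 30 ng/ml (horizontal, no unit) and by the −log10 of its unadjusted edgeR p (vertical); red and blue mark the 77 higher and 12 lower genes with an adjusted p under 0.05. Slc13a3, Acod1, Fpr1, Saa3 and Marco stand at the top right, while the lower genes all lie within 0.57 of 0.

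Acod1, which encodes aconitate decarboxylase, the itaconate-forming enzyme, had the largest log2 fold change among the named genes. Its CPM in replicates 1 to 5 was 4.72, 4.62, 5.16, 6.12 and 4.39 at 30 ng/ml and 17.5, 20.9, 16.9, 15.5 and 15.3 at 100 ng/ml. Unstimulated cultures had 4.34, 2.87, 3.32, 2.65 and 2.90 CPM. The 3 groups did not overlap, and the mean was 3.44-fold higher at 100 than at 30 ng/ml (log2 fold change 1.78 ± 0.12, adjusted p = 2.41e-07). The step from no IL-12 to 30 ng/ml had a log2 fold change of 0.62 (adjusted p = 0.0103). Slc13a3, a sodium-dependent carrier of dicarboxylates, stood with it and had the smallest p of all genes. It had 10.4, 9.84, 10.4, 10.1 and 10.3 CPM at 30 ng/ml and 24.5, 23.2, 24.1, 22.1 and 22.2 CPM at 100 ng/ml, 2.28-fold apart (log2 fold change 1.19 ± 0.07, adjusted p = 2.39e-08). Its mean without IL-12 was 7.84 ± 0.987 CPM (SD, n = 5), and all of those cultures lay below those at 30 ng/ml. Among the 21 tested genes of itaconate, arginine and prostaglandin metabolism these 2 rose (9.52% against 0.501% of all genes tested) and none fell. The median log2 fold change was 0.14. This list and the others below were drawn up with earlier results of these data known, so their shares of calls are not independent of them. Ass1 and Asl, of arginine synthesis, gave 0.21 and 0.15, Ptgs2, the inducible cyclooxygenase, 0.26, and Odc1, of polyamine synthesis, 0.00, with adjusted p-values of 0.291, 0.344, 0.642 and 0.997.

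**Figure D3:**
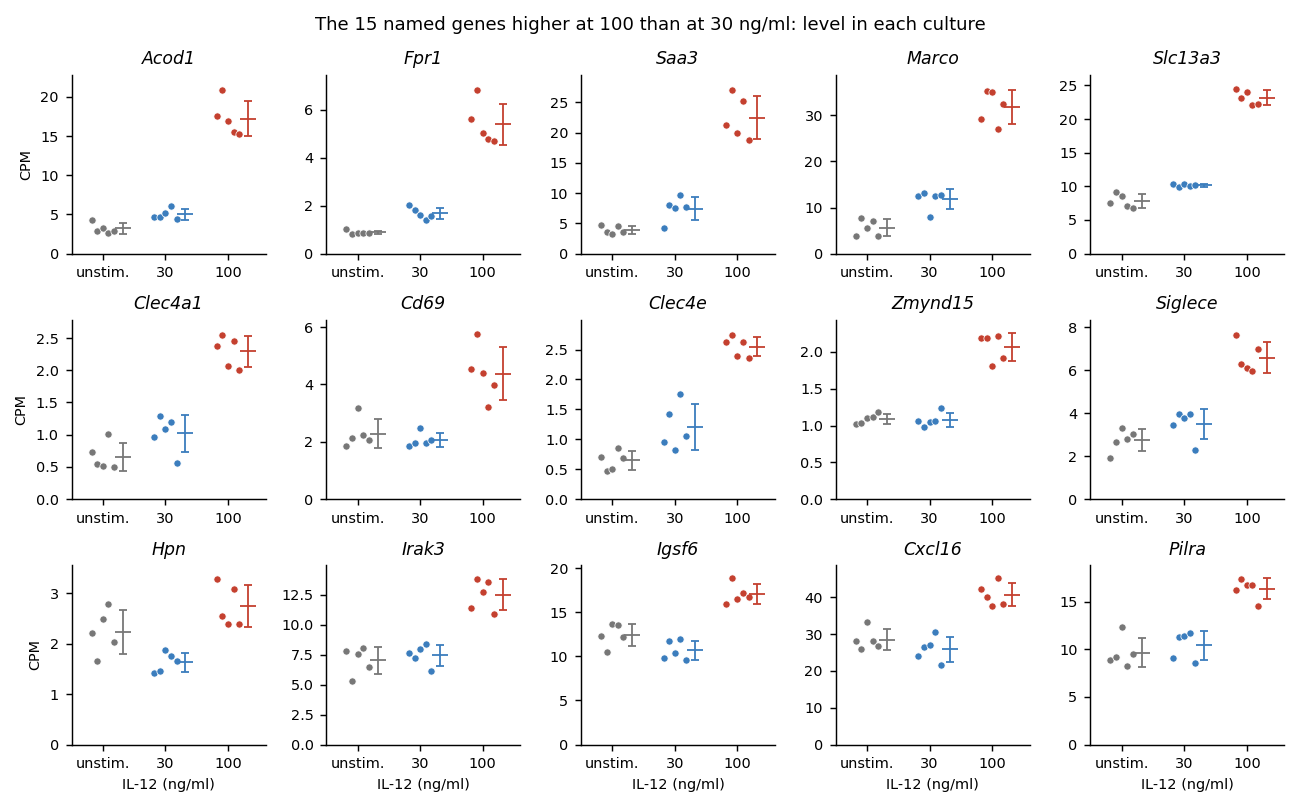
CPM (vertical, from 0, a scale per panel) of the 15 named genes higher at 100 than at 30 ng/ml, in each culture by IL-12 dose; points are cultures and the bar beside them is the mean ± SD of 5. In each panel the 5 cultures at 100 ng/ml lie above the 5 at 30 ng/ml, while the cultures at 30 ng/ml and without IL-12 are separate in Acod1, Fpr1, Marco and Slc13a3 and overlap in the other 11.

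Receptors for microbial and damage signals formed the second group. Of 34 tested pattern-recognition and scavenger receptors and their adaptors, 7 rose from 30 to 100 ng/ml and none fell, which is 20.6% against 0.501% of all genes tested. A positive log2 fold change was found in 28, and the median was 0.21, against -0.004 over all genes. Of the 34, 1 reached the filter only through the cultures at 100 ng/ml and is counted in these values. Of the 33 that reached it in the other cultures 7 were called, 21.2% against 0.499% of the 15228 genes of that kind. Fpr1, the receptor for bacterial formyl peptides, was at 2.01, 1.81, 1.61, 1.41 and 1.56 CPM at 30 ng/ml and 5.61, 6.81, 5.02, 4.78 and 4.69 CPM at 100 ng/ml. The unstimulated cultures had 1.02, 0.825, 0.840, 0.860 and 0.879 CPM, so that the 3 groups were separate and ordered by dose, and the doses differed 3.19-fold (log2 fold change 1.67 ± 0.13, adjusted p = 9.2e-07). Marco, a macrophage scavenger receptor that binds bacteria, had 12.5, 13.1, 7.90, 12.5 and 12.8 CPM at 30 ng/ml, where replicate 3 was low. At 100 ng/ml it had 29.1, 35.2, 35.1, 27.1 and 32.5 CPM, all above 30 ng/ml (log2 fold change 1.43 ± 0.16, adjusted p = 0.000123), and the unstimulated cultures, at 3.92, 7.74, 5.55, 7.10 and 3.90 CPM, all lay below both doses. Clec4e (Mincle), a lectin receptor for glycolipids, had 0.957, 1.43, 0.823, 1.75 and 1.06 CPM at 30 ng/ml and 2.63, 2.74, 2.40, 2.62 and 2.36 CPM at 100 ng/ml (log2 fold change 1.08 ± 0.18, adjusted p = 0.00795). With raw counts of 13 to 84 per culture it was among the sparsest genes called.

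Tlr2, the Toll-like receptor for bacterial lipoproteins, was more abundant. Its level was 71.8, 88.2, 90.1, 94.4 and 76.8 CPM at 30 ng/ml and 115, 127, 115, 132 and 124 CPM at 100 ng/ml (log2 fold change 0.54 ± 0.08, adjusted p = 0.00428). Without IL-12 it was at 80.9, 69.1, 97.4, 88.3 and 87.4 CPM, overlapping the 30 ng/ml cultures, with the lowest and the highest value of the 2 groups. Cd14, the lipopolysaccharide co-receptor, went from 20.5 ± 1.56 to 27.5 ± 1.79 CPM (log2 fold change 0.42 ± 0.07, adjusted p = 0.00484). Irak3, a kinase-like protein that restrains Toll-like receptor signaling, went from 7.46 ± 0.870 to 12.5 ± 1.29 CPM (log2 fold change 0.74 ± 0.11, adjusted p = 0.00284). Clec4d, the partner of Mincle, was 4.15 ± 0.154 CPM without IL-12, 5.81 ± 0.472 at 30 and 7.62 ± 0.662 at 100 ng/ml, with separate groups at each step. Tlr4, which senses lipopolysaccharide itself, gave 0.06 ± 0.13, and Tlr7 and Tlr9, which sense nucleic acids, gave 0.17 ± 0.11 and 0.29 ± 0.13, all with adjusted p above the threshold (0.885, 0.553 and 0.339). Myd88, the adaptor of most Toll-like receptors, gave 0.18 and the mannose receptor Mrc1 -0.02, neither past the test.

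These rises stood beside a shift in the markers of the cells that carry such receptors. The median log2 fold change of those markers, 0.29, was above the 0.21 of the receptor list as a whole. Of 21 tested microglia and macrophage markers 20 had a positive log2 fold change, with a median of 0.29, and 1 passed the test (4.76% against 0.501% of all genes tested): Adgre1 (F4/80), at 206, 253, 259, 263 and 206 CPM at 30 ng/ml and 309, 357, 293, 364 and 344 CPM at 100 ng/ml (log2 fold change 0.49 ± 0.10, adjusted p = 0.0241). Aif1 gave 0.54 (adjusted p = 0.0794), Csf1r 0.34 (0.187), Cx3cr1 0.33 (0.234) and P2ry12 0.06 (0.875). Against unstimulated cultures the same list had a median of -0.13 at 100 ng/ml and -0.42 at 30 ng/ml. The part of this shift in the differences of the myeloid genes was not tested. The log2 fold changes of Acod1, Fpr1, Saa3 and Marco, from 1.43 to 1.78, were larger than that of every marker on the list, the highest being 0.54, whereas those of Tlr2, Cd14 and Clec4d were within the range of the markers.

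NF-kB-responsive genes gave the largest number of calls of any list: 10 of 39 tested rose and none fell, with a median log2 fold change of 0.23 and 33 positive. Of the 10, Tnip3 reached the filter only through the cultures at 100 ng/ml and so had to be higher there. Tnip3 is also counted in the 33 positive genes and in the median. Of the 38 members that reached it in the other cultures 9 were called, 23.7% against 0.499% of the 15228 genes of that kind. Leaving out replicate 4 at 100 ng/ml lowered the count of 10 to 6, and leaving out replicate 1 or replicate 5 at 30 ng/ml lowered it to 6 or 4. The inhibitors of the pathway were among them. Nfkbia, which encodes the inhibitor IκBα, had 33.5, 34.8, 39.8, 36.6 and 33.8 CPM at 30 ng/ml and 42.5, 46.3, 44.2, 41.9 and 42.1 CPM at 100 ng/ml (log2 fold change 0.28 ± 0.05, adjusted p = 0.0121). Tnip1, a ubiquitin-binding inhibitor, went from 29.2 ± 1.23 to 34.5 ± 1.71 CPM (log2 fold change 0.24 ± 0.05, adjusted p = 0.0332). Tnip3, of the same family, was sparse, and the cultures at 100 ng/ml had 1.41, 1.49, 1.004, 1.35 and 1.17 CPM against 0.429, 0.556, 0.711, 0.824 and 0.319 CPM at 30 ng/ml. Of the 24 alternative fits, 13 called Tnip1 and 15 called Tnip3. Tnfaip3 (A20), the enzyme that Tnip1 and Tnip3 proteins work with, gave 0.33 ± 0.08 (adjusted p = 0.0654). Of the subunits of the factor itself, Nfkb1 gave 0.14, Nfkb2 0.22, Rela -0.01, Rel 0.15 and Relb -0.13, none past the test.

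Promoters of 4 of these genes are shown because they hold the letters searched for, those of NF-kB in the first 3 and of PU.1, a factor of the macrophage lineage, in the fourth. They come from RefSeq's promoter table (GRCm38.p6), were found again by exact match in GRCm39 and run 5′ to 3′ on the gene's strand, cut so that they hold no annotated exon, with motif matches in capitals.
Nfkbia, chr12:55539433-55539612, minus strand: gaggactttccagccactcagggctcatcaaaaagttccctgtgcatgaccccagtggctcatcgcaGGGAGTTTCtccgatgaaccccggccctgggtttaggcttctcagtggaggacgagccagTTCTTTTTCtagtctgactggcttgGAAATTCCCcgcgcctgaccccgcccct
Tnip3, chr6:65567202-65567381, plus strand, at a start inside the annotated gene: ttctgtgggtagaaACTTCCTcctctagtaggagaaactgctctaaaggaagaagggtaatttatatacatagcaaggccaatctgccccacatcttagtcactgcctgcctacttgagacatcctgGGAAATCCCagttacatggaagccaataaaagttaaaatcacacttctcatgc
Tlr2, chr3:83749075-83749165, minus strand: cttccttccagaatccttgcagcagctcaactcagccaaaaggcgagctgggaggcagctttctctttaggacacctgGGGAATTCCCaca
Acod1, chr14:103284233-103284412, plus strand: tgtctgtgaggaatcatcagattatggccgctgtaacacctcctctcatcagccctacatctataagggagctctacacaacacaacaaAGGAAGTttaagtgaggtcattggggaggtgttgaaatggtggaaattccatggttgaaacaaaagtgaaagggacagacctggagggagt
In Nfkbia the first run and the third are NF-kB matches (GGGANTTNC, either strand) and the second matches the interferon-stimulated response element (GAAANNGAA). In Tnip3 the first run matches PU.1 (AGGAAGT) and the second NF-kB. The run of Tlr2 is a pair of overlapping NF-kB matches, 1 on each strand.

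The table held promoters, each from 250 bases before to 50 after the start, for 57 of the 76 higher genes other than Tnip3, which is left out since it reached the filter only at 100 ng/ml. The NF-kB letters were in 6 of them (10.5%), Hpn, Tnip1, Nfkbia, Tlr2, Gpr84 and Pik3r5, against 4.94% of 27025 genes in the table. PU.1 letters were in 14 (24.6%, against 10.7%), those of the interferon-stimulated response element in 11 (19.3%, against 9.76%) and those of AP-1 (TGANTCA) in 10 (17.5%, against 8.97%). The gamma-activated site bound by STAT factors (TTCNNNGAA) was in 3 (5.26%, against 9.55%) and the C/EBP letters (TTNNGCAA) were in 10 (17.5%, against 12.2%). Of the 8 lower genes with a promoter in the table, 1 (12.5%) held the NF-kB letters, 1 those of AP-1, 3 (37.5%) those of C/EBP and none those of PU.1, the interferon-stimulated response element or the gamma-activated site. Of the 15 named higher genes, 12 had a promoter in the table. The NF-kB letters were in 1 of these 12 (8.33%), those of PU.1 in 2 (16.7%) and those of the interferon-stimulated response element in 3 (25%). The C/EBP letters were in 5 (41.7%), and those of AP-1 and the gamma-activated site in none. The shares over the table are of all its genes, tested here or not. Matches of different motifs may share bases, no test was made, and a match is a run of letters and not a shown site.

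The effectors among the NF-kB-responsive genes rose by varied amounts. Saa3, an acute-phase serum amyloid made by macrophages, was at 4.29, 7.99, 7.60, 9.65 and 7.72 CPM at 30 ng/ml and 21.2, 27.0, 19.9, 25.3 and 18.8 CPM at 100 ng/ml. The doses were 3.01-fold apart with no overlap (log2 fold change 1.59 ± 0.16, adjusted p = 3.51e-05), and replicate 1 at 30 ng/ml lay within the unstimulated range of 4.73, 3.51, 3.32, 4.48 and 3.59 CPM. Tnf, the cytokine TNF, had 9.44, 11.4, 12.3, 13.02 and 11.2 CPM at 30 ng/ml and 14.3, 16.2, 15.9, 14.8 and 15.6 CPM at 100 ng/ml (log2 fold change 0.42 ± 0.08, adjusted p = 0.0155). Icam1, an adhesion molecule for leukocytes, went from 41.7 ± 3.10 to 52.0 ± 1.75 CPM (log2 fold change 0.32 ± 0.06, adjusted p = 0.00887), and its mean without IL-12, 41.3 CPM, was close to that at 30 ng/ml. Tnfaip2 went from 17.2 ± 2.34 to 25.4 ± 1.48 CPM (log2 fold change 0.56 ± 0.07, adjusted p = 0.00109) and Ikbke, a kinase of innate signaling, from 33.6 ± 2.34 to 43.5 ± 2.21 CPM (log2 fold change 0.37 ± 0.07, adjusted p = 0.0137). The anti-apoptotic paralogs Bcl2a1a and Bcl2a1d gave 0.60 and 0.45 (adjusted p = 0.0195 and 0.0206), and their near-identical copy Bcl2a1b 0.30 (adjusted p = 0.181). How reads were divided among these copies is uncertain.

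Other lists of cytokines and chemokines held 1 call or none. Of 24 tested chemokines and chemokine receptors Cxcl16 alone passed (4.17% against 0.501% of all genes tested). It is a membrane-bound chemokine that also takes up oxidized lipoprotein, and was at 24.0, 26.6, 26.9, 30.5 and 21.6 CPM at 30 ng/ml and 42.3, 40.3, 37.7, 45.2 and 38.1 CPM at 100 ng/ml (log2 fold change 0.65 ± 0.08, adjusted p = 0.000822). Zmynd15 overlaps Cxcl16 on the opposite strand and rose with it, from 1.08 ± 0.0979 to 2.07 ± 0.186 CPM (log2 fold change 0.94 ± 0.12, adjusted p = 0.000953), and whether its reads are its own depends on how strand was used in the quantification, which is not given in the sources used here. The microglial chemokines Ccl3 and Ccl4 gave 0.31 ± 0.10 and 0.36 ± 0.10, Ccl2 gave 0.23 ± 0.15 and the interferon-induced Cxcl10 -0.05 ± 0.29, none past the test. In the TNF superfamily 1 of 18 rose (5.56%, against the same 0.501%), Tnf itself, which is also on the NF-kB list. None of 19 genes of the IL-1 family and inflammasome (median 0.19) and none of 36 other cytokines and growth factors (median 0.04) passed. Of those 36, 1 reached the filter only through the cultures at 100 ng/ml.

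Further surface molecules, several of them of myeloid cells, were among the 15 named genes. Clec4a1, a C-type lectin, had 0.957, 1.29, 1.09, 1.20 and 0.566 CPM at 30 ng/ml and 2.38, 2.54, 2.07, 2.46 and 2.01 CPM at 100 ng/ml (log2 fold change 1.16 ± 0.20, adjusted p = 0.00825). Cd69, a C-type lectin known as an early activation antigen of lymphocytes, had 1.85, 1.95, 2.47, 1.96 and 2.05 CPM at 30 ng/ml and 4.54, 5.75, 4.41, 3.23 and 3.96 CPM at 100 ng/ml (log2 fold change 1.09 ± 0.16, adjusted p = 0.00284). The T and NK cell markers given above had no call: Cd4, which microglia can also carry, Cd28 and Klrb1c were tested and made up most of their sum, and 9 of the 16 were below 0.1 TPM. The part of lymphocytes in the level of Cd69 was not tested. Siglece, an inhibitory sialic acid receptor, went from 3.48 ± 0.711 to 6.58 ± 0.7099 CPM (log2 fold change 0.92 ± 0.15, adjusted p = 0.00502), Igsf6 from 10.7 ± 1.10 to 17.1 ± 1.10 CPM (log2 fold change 0.68 ± 0.08, adjusted p = 0.000359) and the inhibitory receptor Pilra from 10.4 ± 1.49 to 16.4 ± 1.08 CPM (log2 fold change 0.65 ± 0.10, adjusted p = 0.00496). Igsf6 and Pilra lie within or over genes of the opposite strand, Mettl9 and Zcwpw1, as Irak3 does with Tmbim4. Hpn, a membrane serine protease, went from 1.63 ± 0.192 to 2.74 ± 0.420 CPM (log2 fold change 0.75 ± 0.15, adjusted p = 0.0271) and was called under 18 of the 24 alternatives.

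Clec4a1, Clec4d and Clec4e lie in 1 lectin cluster on chromosome 6, from 122896122 to 123266829 (GRCm39). Its other tested genes, singled out after their values were seen, were Clec4a3 with a log2 fold change of 0.70 ± 0.21 (adjusted p = 0.173), Clec4a2 with 0.75 ± 0.21 (0.139) and Clec4n with 0.67 ± 0.19 (0.152). None of these 3 passed the test. Cd69 lies farther along the same chromosome beside Clec12a, which gave 0.58 ± 0.12 (adjusted p = 0.0361) and is expressed on myeloid cells. How reads were divided among the similar members of the cluster is uncertain.

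Of the 15 named higher genes, 8 had nearly all estimated counts on 1 transcript: Acod1, Fpr1, Clec4a1 and Igsf6 had all of them there, and Marco, Saa3, Siglece and Cd69 had medians of 100%, 99.1%, 97.6% and 96.5% at 100 ng/ml. The other 7 were split over several transcripts. The leading transcript of Irak3 held a median of 68.5%, that of Pilra 61.3%, of Clec4e 52.7%, of Slc13a3 51.2%, of Cxcl16 44.2%, of Hpn 39.8% and of Zmynd15 38.6% of the counts at 100 ng/ml. Slc13a3 shows what such a split does to the values. Its 2 long transcripts, Slc13a3-202 and Slc13a3-201, had means of 3.002 and 1.69 TPM at 30 ng/ml and 6.60 and 4.41 TPM at 100 ng/ml, whereas the 456-base Slc13a3-203 was at 3.74 and 2.99 TPM. Summed per gene, TPM of Slc13a3 rose less (10.9 to 17.4) than CPM did, since short transcripts weigh more in TPM. Such splits are estimates of the quantification and carry an error that the files do not give.

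Among the abundant genes called, Lyz2, the lysozyme of macrophages, had 1185, 1226, 1289.5, 1232 and 1063 CPM at 30 ng/ml and 1863, 1713, 1527, 1817 and 1774 CPM at 100 ng/ml (log2 fold change 0.54 ± 0.11, adjusted p = 0.0353). The unstimulated cultures ran from 1049 to 1882 CPM and overlapped both. Mmp14, a membrane-bound matrix metalloproteinase, had 214, 225, 220.5, 238 and 219 CPM at 30 ng/ml and 282, 250.5, 291, 255 and 275 CPM at 100 ng/ml (log2 fold change 0.28 ± 0.05, adjusted p = 0.00825). It was ordered by dose with separate groups, the unstimulated cultures being at 191, 185, 177, 198 and 193 CPM, and was the only 1 of 28 matrix proteases and inhibitors to pass (3.57% against 0.501% of all genes tested). The lncRNA Gm43305 went from 686 ± 46.1 to 896 ± 51.4 CPM (log2 fold change 0.38 ± 0.05, adjusted p = 0.00188). Cnn3, an actin-binding calponin, was lower, from 1133 ± 18.4 to 1001 ± 21.3 CPM (log2 fold change -0.18 ± 0.04, adjusted p = 0.035). Cnn3 was called under 11 of the 24 alternatives and Lyz2 under 15.

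The 12 genes lower at 100 than at 30 ng/ml included transcription factors of neural progenitors and glia. Sox9, which directs astrocyte and glial progenitor fate, had 187, 183, 165, 163 and 171 CPM at 30 ng/ml and 138, 134, 142, 143 and 156 CPM at 100 ng/ml (log2 fold change -0.29 ± 0.05, adjusted p = 0.00762). No value at 100 ng/ml reached those at 30 ng/ml, and the unstimulated mean was 158 ± 5.42 CPM. Sox2, a factor of neural stem and glial cells, had 184, 163, 174, 162 and 183 CPM at 30 ng/ml and 138, 148, 148, 148 and 141 CPM at 100 ng/ml (log2 fold change -0.26 ± 0.05, adjusted p = 0.0267). The unstimulated cultures, at 167, 190.4, 157, 174 and 177 CPM, lay with the 30 ng/ml cultures. Sox2 lies within the noncoding gene Sox2ot on the same strand. Among astrocyte markers Sox9 was the only 1 of 13 called (7.69%, against 0.0781% of all genes called lower); 11 were negative, with a median of -0.09, Aqp4 at -0.19, Slc1a3 at -0.12 and Gfap at -0.00, and against unstimulated cultures the medians were 0.16 (30 ng/ml) and -0.02 (100 ng/ml).

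Peg10, an imprinted retrotransposon-derived gene, had 43.1, 41.5, 38.8, 42.0 and 44.2 CPM at 30 ng/ml and 28.1, 28.4, 35.9, 30.1 and 28.3 CPM at 100 ng/ml (log2 fold change -0.48 ± 0.08, adjusted p = 0.00528), where replicate 3 was high but below every culture at 30 ng/ml. Hmga2, a chromatin protein of fetal and progenitor cells, went from 6.37 ± 0.711 to 4.61 ± 0.470 CPM (log2 fold change -0.47 ± 0.09, adjusted p = 0.0241), and Col10a1, a collagen that overlaps Nt5dc1 on the opposite strand, from 9.97 ± 1.89 to 6.74 ± 0.547 CPM (log2 fold change -0.57 ± 0.13, adjusted p = 0.0486). Col10a1 was called under 12 of 24 alternatives and Hmga2 under 16. Dclk1, a microtubule-associated kinase, had 176, 192, 181, 165 and 179 CPM at 30 ng/ml and 121, 162, 140.1, 140.3 and 142 CPM at 100 ng/ml (log2 fold change -0.34 ± 0.07, adjusted p = 0.0369), and the latter overlapped the unstimulated cultures, at 153, 143, 119.9, 125 and 141 CPM, which the 30 ng/ml cultures exceeded. The same order, with 30 ng/ml above both other groups, was seen in the means of Slc5a3, the myo-inositol carrier (109.6, 129 and 104 CPM at 0, 30 and 100 ng/ml), of Plxna3, a semaphorin co-receptor (15.7, 19.7 and 16.0), and of Ak5, an adenylate kinase of brain (27.5, 35.9 and 30.1). Genes called lower were selected for high values at 30 ng/ml against 100 ng/ml. The same 30 ng/ml cultures enter both steps, so the selection favours this order. Slc5a3 overlaps Mrps6, at a mean of 123.5 CPM over all cultures, on the same strand, and how reads were divided between them is uncertain. Magee1 went from 31.2 ± 0.834 to 26.5 ± 1.37 CPM (log2 fold change -0.23 ± 0.05, adjusted p = 0.0321). Plxna3 was called under 7 of 24 alternatives, Magee1 under 14, and Dclk1, Slc5a3 and Ak5 under 15 each.

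**Figure D4:**
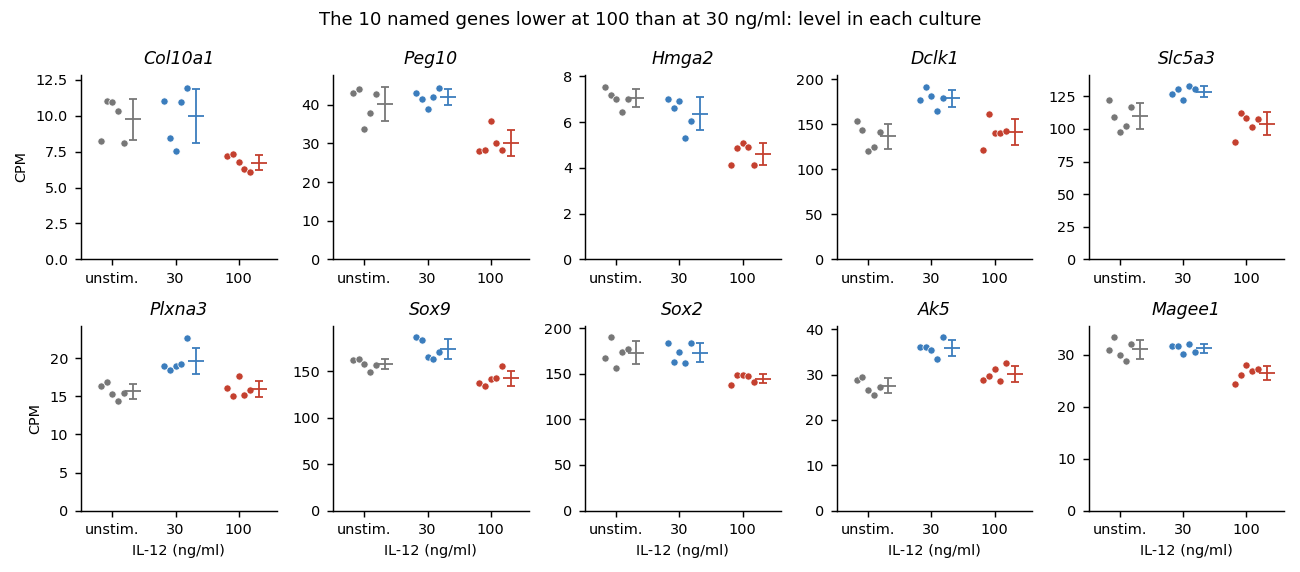
CPM (vertical, from 0, a scale per panel) of the 10 named genes lower at 100 than at 30 ng/ml, in each culture by IL-12 dose; points are cultures and the bar beside them is the mean ± SD of 5. The cultures at 100 ng/ml lie below those at 30 ng/ml in each panel, and in Peg10, Dclk1, Slc5a3, Plxna3, Sox9 and Ak5 they overlap the unstimulated cultures.

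Not all genes called between the doses had means ordered by dose. Among the 15 higher named genes the step from no IL-12 to 30 ng/ml, a comparison that shares the 30 ng/ml cultures with that between the doses, had a log2 fold change of 0.91 in Fpr1, 0.91 in Saa3, 1.07 in Marco, 0.62 in Acod1, 0.89 in Clec4e and 0.38 in Slc13a3, all with adjusted p below 0.05. It was -0.15 in Cd69, -0.01 in Zmynd15, -0.13 in Cxcl16, -0.22 in Igsf6 and -0.45 in Hpn, none past the test. It was 0.08 in Irak3, 0.11 in Pilra, 0.62 in Clec4a1 and 0.36 in Siglece, whose means rose at each step, again none past the test. The difference between 100 ng/ml and no IL-12 was 2.40 in Acod1, 2.59 in Fpr1, 0.82 in Irak3, 0.46 in Igsf6 and 0.29 in Hpn, the last with an adjusted p of 0.215.

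The receptor and its signaling chain did not differ detectably between the doses. Il12rb1 had 1.19, 0.973, 0.973, 0.550 and 1.03 CPM at 30 ng/ml and 0.846, 0.822, 0.875, 0.875 and 1.17 CPM at 100 ng/ml (log2 fold change -0.03 ± 0.20, adjusted p = 0.966). Il12rb2 had 3.66, 4.07, 4.04, 4.29 and 2.76 CPM at 30 ng/ml and 4.01, 4.97, 3.89, 4.57 and 4.55 CPM at 100 ng/ml (log2 fold change 0.22 ± 0.11, adjusted p = 0.432). The groups overlapped in both. Il12rb2 overlaps Serbp1, at a mean of 219 CPM over all cultures, on the opposite strand. Whether the reads of Il12rb2 are its own depends on how strand was used in the quantification, which is not given. Jak2 was at 56.8 ± 3.39 and 55.7 ± 4.92 CPM and Tyk2 at 36.2 ± 1.98 and 39.2 ± 2.13 CPM, with log2 fold changes of -0.03 ± 0.06 and 0.12 ± 0.06. Stat4 had 0 to 6 counts per culture and failed the filter. Of 13 tested genes of IL-12 reception and signaling none passed, with a median of -0.02, and Tbx21 and Ifng, targets of STAT4 in lymphocytes, were below 0.1 TPM.

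Lists without a call had median log2 fold changes from -0.10 to 0.19, with a median over all genes of -0.004 for comparison. The highest of these were near the 0.23 and 0.21 of the NF-kB and pattern-recognition lists. None of 37 type I interferon-responsive genes passed, though 33 were positive with a median of 0.18. Of the 37, 1 reached the filter only through the cultures at 100 ng/ml. None passed either among 31 interferon-gamma-responsive genes (0.08), 17 MHC genes (17 positive, 0.16), 20 complement genes (0.18) and 39 genes of lysosome and phagocytosis (0.15). These lists include many genes of macrophages and moved beside the microglial markers, and the part of that shift was not tested. The medians were 0.12 for 42 extracellular matrix genes, 0.03 for 31 NRF2 and stress-responsive genes, 0.03 for 40 cell cycle genes, -0.00 for 23 STAT3-responsive genes, -0.01 for 34 glycolysis and hypoxia-inducible genes, -0.01 for 33 genes of cholesterol and lipid handling, -0.04 for 26 immediate early genes and 0.00 for 39 genes of glutamate and GABA receptors and the synapse. Of 2 lists of genes that the study itself named, which are not independent of it, 27 IL-12-dependent neuronal genes had a median of -0.08 and 9 genes of a hyperinflammatory microglial signature one of 0.12, all 9 positive. Markers of other cells had medians of -0.10 in 15 oligodendrocyte-lineage, 0.04 in 19 cerebellar neuron, 0.16 in 12 fibroblast and meningeal and 0.08 in 7 endothelial genes, with no call. Of T and NK cell markers 3 were tested (0.03), and of neutrophil and monocyte markers 2 (0.12), again with no call. All 78 tested cytosolic ribosomal protein genes were positive, with a median of 0.11 and no call, and 13 mitochondrially encoded genes had a median of -0.05.

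**Figure D5:**
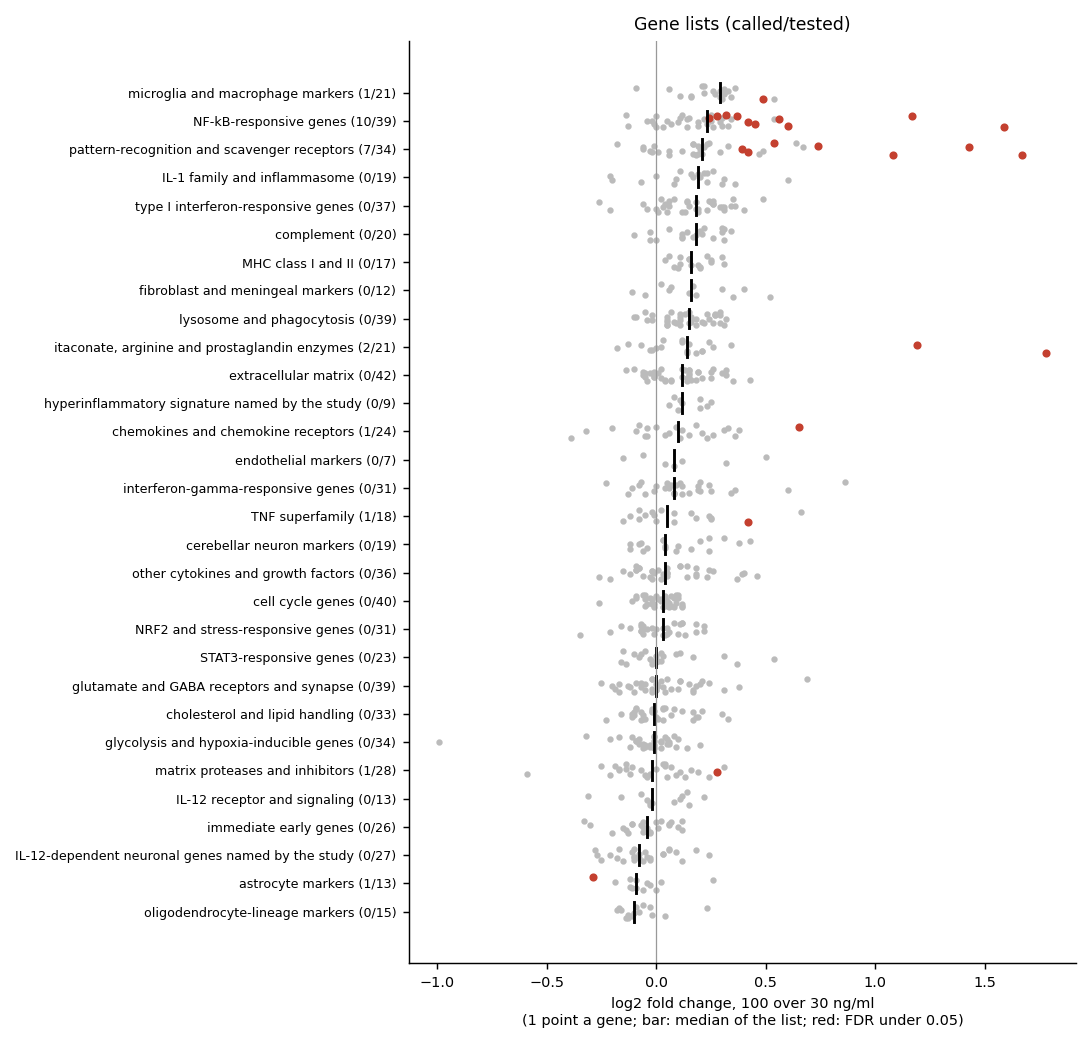
Log2 fold change of 100 over 30 ng/ml (horizontal, no unit) for each tested member of 30 gene lists with 7 or more members tested, ordered by the median (black bar); red points passed an adjusted p of 0.05, and the numbers beside each name are genes called and tested. NF-kB-responsive genes (10 of 39) and pattern-recognition receptors (7 of 34) hold most of the red points, and the microglial markers have the highest median with 1 of 21 called.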

How the data were processed

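Per the labels and the study's methods, poly(A) libraries (TruSeq Stranded mRNA) were sequenced as single reads. The authors deposited, for each of 15 cultures, a table of 121798 transcripts with estimated counts, TPM and an effective length, which is another unit, in bases. The submitters' processing notes name FastQC 0.10.0, STAR 2.7.8a, featureCounts and GRCm39; the program that made the deposited estimated counts, and its use of strand, are not given in the sources used here. From these files, estimated counts were summed per gene through GENCODE M39 (120537 transcripts matched; the others held 0.677% to 0.712% of counts) and rounded. Deposited TPM were summed per gene and used only for levels and marker sums.

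The 15360 genes that reached 1 CPM in 2 cultures or more were fitted with edgeR 4.0.16 in R 4.3.3 (TMM, quasi-likelihood, 1 fit of 3 groups, 12 residual degrees of freedom), with Benjamini-Hochberg adjustment over all genes and an adjusted p under 0.05 as the threshold. All p-values of the report come from it; they are 2-sided. CPM are TMM-scaled, ± is an SD over 5 cultures for levels and an SE for log2 fold changes. Named genes were the 15 higher and 10 lower protein-coding genes with the largest log2 fold change and a mean of at least 1 CPM over stimulated cultures, every called member of a list, 5 genes of the IL-12 receptor chain, and the 5 most abundant called genes. Lists are described by counts and medians without a set test. The groups, lists and rules were chosen with earlier results of these data known. Each of 24 alternatives changed 1 choice of the fit: DESeq2 1.42.0, the likelihood-ratio test, RLE or no scaling factors, other filters, only the 10 stimulated cultures, an effective-length offset, a replicate block and each culture left out in turn. A further threshold changed 2 choices together, a raw p in place of the adjusted p and a limit on the log2 fold change. Depth was 25746096 to 38435850 estimated counts, and sparse genes, such as those with under 20 counts in a culture, have wide counting error. The procedure was also run on simulated counts, which took their means and spread from the fit of these data.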

Additional observations from a re-analysis of the deposited data

Results flagged for a closer look

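In groups of 5 cultures, a value is listed here when its gap to the nearest other culture exceeds 0.71 of the group's range (Dixon's test). Among 138 groups of named genes 14 were listed, and chance alone lists about 1 in 20. Among genes that separate the doses, Marco in replicate 3 at 30 ng/ml was at 7.90 CPM, against 12.5 to 13.1 in the other 4, and Icam1 in the same culture at 47.1 CPM, against 39.3 to 41.3. Replicate 5 at 30 ng/ml had 22.7 CPM of Plxna3, against 18.5 to 19.2, and 1164 CPM of Cnn3, against 1118 to 1130; both genes are lower at 100 ng/ml. At 100 ng/ml, Peg10 was 35.9 CPM in replicate 3, against 28.1 to 30.1, Clec4d 8.77 CPM in replicate 1, against 7.16 to 7.57, and Il12rb1 1.17 CPM in replicate 5, against 0.822 to 0.875. In unstimulated cultures, Cd69 was 3.18 CPM and Cxcl16 33.3 CPM in replicate 3, Fpr1 1.02 CPM and Jak2 64.1 CPM in replicate 1, Tnf 8.57 CPM in replicate 2, Tyk2 42.6 CPM in replicate 4 and Bcl2a1a 4.09 CPM in replicate 5.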

How the results depend on the processing

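Against 89 genes called, DESeq2 called 247 (179 higher at 100 ng/ml and 68 lower) and edgeR's likelihood-ratio test 253 (188 and 65); 88 and 89 of the 89 were among them. Lower genes numbered 7 without a filter on low counts, 5 with a replicate block and 6 with calls made at a raw p up to 0.01 and an absolute log2 difference from 0.5 up, against 12. Leaving out 1 culture gave 38 to 147 calls, 36 to 93 of them higher and 2 to 58 lower. Pairing by number was not used: deviations of same-numbered cultures at 30 and 100 ng/ml correlated at -0.18 to 0.01, and with the replicate block 69 genes were called, 64 higher. The other settings gave 63 to 95 calls. Over 24 alternatives, the 93 genes called or named gave 2231 values, of which none changed direction and 379 lost their call. Genes of few counts, such as Clec4e, Clec4a1 and Tnip3, rest on 9 to 84 counts per culture.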

Other observations

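Several other genes of phagocyte function differed between the doses and are named here after their values were seen. Cybb, the catalytic subunit of the phagocyte NADPH oxidase, went from 89.4 ± 9.61 (SD, n = 5) CPM at 30 ng/ml to 129 ± 19.7 at 100 ng/ml (log2 fold change 0.53, edgeR adjusted p = 0.0179), and Hvcn1, the proton channel that supports that oxidase, from 47.2 ± 5.02 to 63.1 ± 4.18 CPM (0.42, adjusted p = 0.0241). At 30 ng/ml both lay below the unstimulated means of 109 and 57.8 CPM, a comparison that shares the 30 ng/ml cultures with the call. Xdh, xanthine dehydrogenase, went from 69.2 ± 4.79 to 99.4 ± 7.75 CPM (0.52, adjusted p = 0.00284).

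Metal carriers were also among the genes called. Slc11a1 (NRAMP1), which moves iron and manganese out of the phagosome, had 33.5 to 43.0 CPM without IL-12, 48.7 to 60.8 at 30 ng/ml and 66.5 to 79.3 at 100 ng/ml, 3 groups that did not overlap (100 against 30 ng/ml: 0.48, adjusted p = 0.00284). Slc31a2, related to the copper importer, had 32.8 to 36.2 CPM at 30 ng/ml and 43.5 to 45.9 at 100 ng/ml (0.34, adjusted p = 0.000495), and the zinc importer Slc39a4 went from 8.82 ± 0.421 to 11.3 ± 0.902 CPM (0.36, adjusted p = 0.0321).

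Some called genes had a lower mean at 30 ng/ml than without IL-12 and a higher one again at 100 ng/ml. They were called on the difference between 30 and 100 ng/ml, so the same 30 ng/ml cultures enter both steps. The selection favours this order, and the opposite one in genes called lower. Gmfg, a regulator of actin branching, had means of 8.98, 6.48 and 9.44 CPM at 0, 30 and 100 ng/ml, Cd52 had 124, 97.0 and 136, and Slamf9 had 22.9, 18.0 and 27.6. In Slamf9 the cultures at 30 ng/ml and without IL-12 overlapped. The opposite order was seen in Wnt5a, a secreted Wnt ligand, with 90.6, 109 and 93.3 CPM. Microglial markers in summed TPM had a similar order of medians to the first 3, and their part in it was not tested.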
